A study of Rattus norvegicus with 6 samples.

Results

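The loci described here are transcribed regions that the authors' gene table lists under identifiers of their own, such as Novel02070, in place of an Ensembl gene identifier. All rows with an identifier of this prefix were taken, which gave 3036 loci among 35790 features, and the other 32754 features are annotated genes. RNA was sequenced from rat cochlear outer hair cells in 3 libraries of the basal turn and 3 libraries of the apical turn. Both groups are Sprague-Dawley (SD) rats of wild-type genotype, aged postnatal day 9, and for each library 30 outer hair cells were collected under a microscope after collagenase digestion of the turn. The labels give no treatment or genetic change in either group, so the labelled difference is the turn. They do not state that replicates are different animals, and p-values then measure only how these libraries vary, which may be technical variation. The sources used here do not give the procedure by which the loci were found.

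Outer hair cells are the sensory cells that amplify sound-evoked motion in the cochlea, and the basal turn encodes high frequencies and the apical turn low ones. Reads that assemble outside annotated genes can come from unannotated exons or transcript ends of a known gene, from long non-coding RNAs, from antisense or divergent promoter transcripts, from precursors of small RNAs, or from protein-coding genes that an annotation lacks. Which of these a given locus is cannot be read from counts alone.

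One locus ties the set to known hair cell biology. Novel02070, on the minus strand of chromosome 4 from 57451331 to 57471944 (table coordinates on a build that the sources used here do not name), spans the annotated genes Mir183 and Mir96 on the same strand. These encode members of the miR-183 family, small RNAs made together from a cluster and typical of sensory cells; changes in the miR-96 seed cause progressive hearing loss in humans and mice. The mature sequences are shown because the seed, the stretch that pairs with target mRNAs, is what sets these RNAs apart; they are from RefSeq (GRCr8), 5′ to 3′, with the seed (bases 2 to 8) in capitals, and the third family member, from Mir182, is given beside them.
rno-miR-183-5p: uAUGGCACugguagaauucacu
rno-miR-96-5p: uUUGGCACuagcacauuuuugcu
rno-miR-182: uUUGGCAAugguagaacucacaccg
The seed of miR-96 differed from that of miR-182 at 1 of 7 bases and from that of miR-183 at 1 base, and the seeds of miR-182 and miR-183 differed at 2 bases. In the table the hairpins of Mir183 and Mir96 lie 97 bases apart, the same spacing as in GRCr8. Counted from the locus's 5′ end, 8266 bases precede the Mir183 hairpin, and 12035 bases follow the Mir96 hairpin before the locus ends. Mir182, which RefSeq places 3533 bases from Mir96 in GRCr8, was not analysed here.

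Novel02070 had 2536, 359 and 411 counts in basal libraries 1 to 3, against 812, 1859 and 372 in apical libraries 1 to 3. As shares of all counts in a library scaled to 1e+06 (CPM), these were 137, 21.7 and 20.2 CPM in basal libraries and 35.5, 99.9 and 16.1 CPM in apical libraries. The groups overlapped, with 1 high basal and 1 high apical library, and the log2 fold change, basal over apical, was 0.39 (SE 1.02, adjusted p = 1; here and below edgeR's quasi-likelihood test, Benjamini-Hochberg over all features). The hairpin genes themselves had almost no counts. Mir96 had 0, 0 and 1 counts in basal libraries, against 1, 14 and 0 in apical libraries, and Mir183 had none in any of the 6.

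Library totals lay between 16511675 and 23140976 counts. The libraries differed in markers of other cell types, and these values bear on what follows. The 15 Schwann cell and myelin genes listed held 0.337%, 3.62% and 2.40% of counts in basal libraries 1 to 3, against 0.0306% to 0.0479% in apical libraries, and the 14 bone and fibrocyte genes found held 0.111%, 0.885% and 2.85% in basal libraries, against 0.299% to 0.406% in apical ones. The 12 macrophage genes held 0.0242% to 0.203% in basal libraries and 0.00395% to 0.00763% in apical libraries, and the 7 red blood cell genes found held 0.247% to 1.14% in basal libraries and 0.0177% to 0.152% in apical libraries. The 16 supporting cell genes held 0.263% to 0.571% in basal libraries and 0.770% to 1.75% in apical ones, while the 9 neuron genes held 0.0390% to 0.0888% in basal and 0.0361% to 0.0499% in apical libraries. The 33 outer hair cell genes found held 7.98%, 2.78% and 1.07% in basal libraries, against 4.86%, 5.31% and 2.85% in apical libraries, so the labelled cell type was present in all 6 and lowest in basal library 3. None of the hair cell, Schwann cell, macrophage, bone or neuron genes was at 0 in every library; Fabp7 of the supporting cell list and Hbe1 of the red blood cell list were. The part of these other cells in the differences below was not tested, and in such samples fewer cells of a type and less RNA per cell cannot be told apart.

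Structurally the loci were mostly spliced and somewhat short. They divided evenly between strands, with 1572 on the plus and 1464 on the minus strand, and 3022 lay on numbered or sex chromosomes and 14 on unplaced contigs. Chromosome 1 held 321 of them, or 10.6%, against 12.6% of annotated genes, while the X chromosome held 55, or 1.81%, against 4.52% of annotated genes. In 2680 loci, or 88.3%, the span on the genome was longer than the transcript length, so the transcript had more than 1 block; this was true of 70.5% of annotated genes. Transcript lengths ran from 153 to 10091 bases with a median of 958.5, against medians of 1138 bases for all annotated genes and 2082 bases for annotated genes with a count. The library kit, as the labels name it, does not record strand, and the sources used here do not give how the authors assigned it.

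A best-matching protein was named by the authors' table for 1194 loci (39.3%), and for 1842 none was. Of those notes, 637 named a rat protein and 317 a mouse protein, 790 described it as hypothetical, uncharacterised or by a clone code only, and 404 gave another protein name. Zinc finger proteins, a large family of DNA-binding factors, made up 39 notes. The same note could recur: 369 loci shared a note with another locus, and 1 mouse entry, mCG1045525, stood beside 59 loci. Loci with a note were longer and more widely detected, with a median length of 1232 bases and counts in all 6 libraries for 17.1%, against 839.5 bases and 7.38% for loci without one. Their mean FPKM (fragments per kilobase of transcript per 1e+06 fragments, by the authors) had a median of 1.81, against 0.906 for loci without a note.

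Together the loci received a small share of the reads, and it did not differ between turns beyond the spread of libraries. They held 2.71%, 1.40% and 0.980% of counts in basal libraries 1 to 3, against 1.68%, 1.91% and 1.37% in apical libraries. The highest and the lowest shares were both basal, and the group means were 1.70% ± 0.901 in basal and 1.65% ± 0.273 in apical libraries (SD, n = 3 each; 2-sided exact permutation p = 0.9, where 3 against 3 cannot go below 0.1). Without basal library 1 the difference, basal minus apical, turned to -0.461 percentage points, and without apical library 3 it was -0.0981. Basal library 1, with the largest share, also had the largest hair cell marker sum. Of the basal libraries it had the smallest Schwann cell, bone and fibrocyte, red blood cell, supporting cell and neuron sums. Its macrophage sum, 0.134%, lay between those of basal library 2 (0.0242%) and basal library 3 (0.203%). Whether any of these is linked was not tested.

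Fewer loci had a count in basal libraries, again with overlap between the groups. At least 1 count was seen for 1068, 771 and 1506 loci in basal libraries 1 to 3, against 1974, 1246 and 1863 in apical libraries 1 to 3. Basal library 3 exceeded apical library 2, so the groups overlapped, and the means were 1115 ± 370 in basal and 1694 ± 392 in apical libraries (SD, n = 3 each; 2-sided exact permutation p = 0.2). After thinning every library to 16511675 counts the means were 1112 and 1677 loci (exact p = 0.2). With a minimum of 10 counts there were 687 to 1353 loci in basal and 1116 to 1717 in apical libraries (exact p = 0.2). Annotated genes with at least 1 count numbered 10812, 10473 and 14162 in basal libraries 1 to 3, against 14359, 11848 and 14052 in apical libraries. Basal libraries 1 and 2 were thus the lowest for annotated genes too, and that part of the pattern was not particular to the loci. Basal library 3 differed: it exceeded apical library 3 for annotated genes, but was below apical libraries 1 and 3 for the loci.

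**Figure D1:**
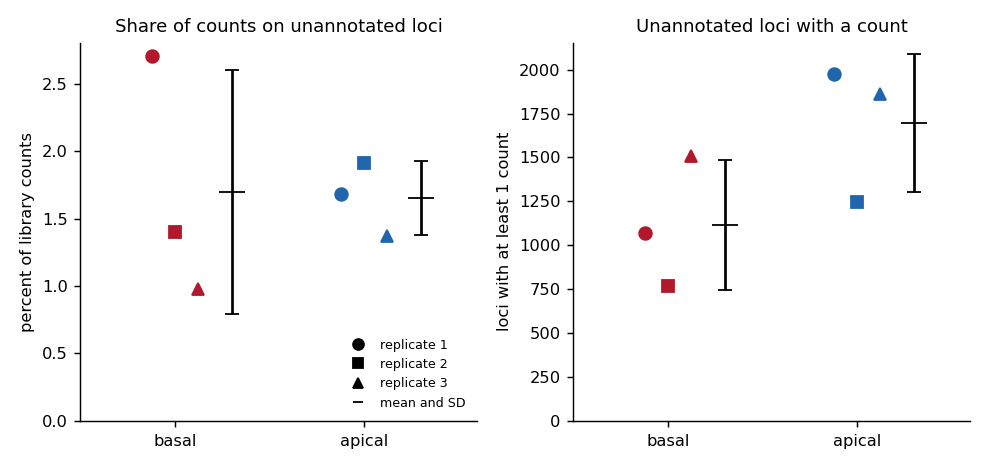
Percent of each library's counts on unannotated loci (left) and number of such loci with at least 1 count (right), for 3 basal and 3 apical libraries; symbols are replicates, and the bar is the mean with its SD. The basal shares run from 0.980% to 2.71% around the apical ones, and loci with a count number 771 to 1506 in basal and 1246 to 1974 in apical libraries.

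Detection was patchy. A count in at least 1 library was found for 3004 loci and in none for 32, while 15720 annotated genes had none. Of the loci with a count, 1010 (33.6%) had it in 1 library alone, against 12.9% of annotated genes with a count, and 340 (11.3%) had counts in all 6, against 46.7% of annotated genes. Per library, 25.4% to 65.0% of the loci and 32.0% to 43.8% of annotated genes had a count; the percentage was higher for the loci in 5 of 6 libraries, by 7.74 percentage points on average (SD 10.4; 2-sided exact sign-flip permutation p = 0.156, n = 6 libraries). Basal library 2 was the exception, with 25.4% of loci and 32.0% of annotated genes. The annotated percentages are taken over all annotated genes, with the 15720 that had no count in any library, while only 32 loci had none. This comparison therefore depends on which features are listed, and it cannot show that loci were detected more readily.

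Loci seen in 1 library alone were not all near the limit of 1 count. Their median count was 39, with 355 of them in basal and 655 in apical libraries. By library they numbered 65, 41 and 249 in basal libraries 1 to 3, against 276, 99 and 280 in apical libraries 1 to 3. Basal library 3 and apical libraries 1 and 3, where the most loci had a count, held the most of these. The highest in each library, taken by rule, were Novel01865 with 961 counts in basal library 1, Novel01528 with 445 in basal library 2 and Novel00271 with 451 in basal library 3. In apical libraries 1 to 3 they were Novel02429 with 316, Novel00061 with 563 and Novel01308 with 293 counts. Each of these 6 had 0 counts in the other 5 libraries, where 3 counts would amount to 0.130 to 0.182 CPM. Novel00271 carried a note of germ cell-specific gene 1-like protein, and Novel00061 of a zinc finger protein.

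Low level went with patchy detection, and within a range of CPM a smaller share of loci than of annotated genes had counts in all 6 libraries. Between 1 and 10 CPM, 9.39% of 1225 loci had counts in all 6 libraries, against 15.9% of 4468 annotated genes. From 10 to 100 CPM the shares were 66.3% of 306 loci and 76.7% of 6754 genes, and at 100 CPM and above all 18 loci and 99.2% of 1966 genes had counts in all 6. These shares are descriptions with no test. On the FPKM scale, the median over features with a count was 9.95, 8.42 and 2.77 for the loci in basal libraries 1 to 3 and 2.08, 5.85 and 2.11 in apical libraries. Annotated genes had 9.34, 14.1 and 7.10 in those basal libraries and 6.86, 9.19 and 6.59 in the apical ones. Loci were lower than annotated genes in 5 of 6 libraries, with a mean difference, loci minus annotated genes, of -3.66 FPKM (SD 2.22; exact sign-flip p = 0.0625, n = 6, where the smallest possible is 0.031).

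**Figure D2:**
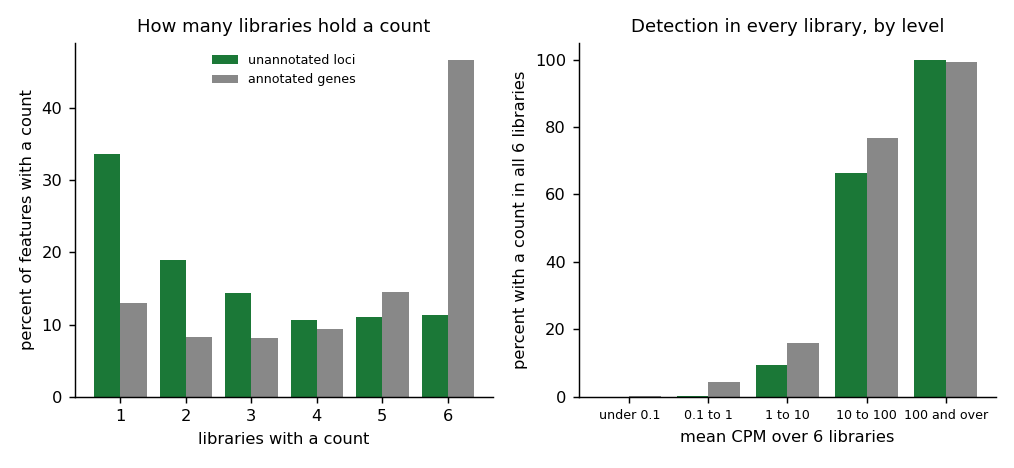
Left, percent of features with a count that had it in 1 to 6 libraries; right, percent with a count in all 6 libraries by mean CPM. Unannotated loci (green) peak at 1 library (33.6%) and annotated genes (grey) at 6 (46.7%), and from 1 to 100 CPM the green bars are lower.

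Counts were concentrated in few loci: the 10 largest held 19.1% and the 100 largest 49.1% of the 1986769 counts on unannotated loci. Mean CPM was at least 10 for 324 loci and at least 100 for 18. Single-block loci, 356 in all, had a median mean FPKM of 1.91 and counts in all 6 libraries for 19.9%, against 1.10 FPKM and 10.0% for the 2680 spliced ones.

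The locus of highest mean CPM was Novel02942, without a protein note, on the minus strand of chromosome 9 from 70379999 to 70384549. It lies 5445 bases before the 5′ end of Dytn, the dystrotelin gene, on the same strand. Novel02942 had 1988, 657 and 270 CPM in basal libraries 1 to 3, against 1043, 1329 and 558 CPM in apical libraries 1 to 3. Its values spanned the whole range within the basal group, and 0.13 (SE 0.75) was its log2 fold change, not past edgeR's threshold (adjusted p = 1). Dytn had 42.4, 25.6 and 13.6 CPM in basal libraries, against 61.7, 94.9 and 27.4 CPM in apical libraries. The authors' FPKM averaged 666 for Novel02942 and 22.5 for Dytn over the 6 libraries. For Dytn this was the count divided by length and total, but for Novel02942 it was higher than that, so the 2 values are not on the same basis.

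The other 9 of the 10 with the highest CPM averaged between 141 and 413 CPM. Novel02069, on chromosome 4 from 56750654 to 56756353 and noted as a kielin/chordin-like protein, had 475, 430 and 82.0 CPM in basal libraries, against 539, 676 and 277 CPM in apical libraries. Novel02302, noted by a clone code, lies 989 bases past the 3′ end of Trnp1 on the same strand of chromosome 5, and had 332, 221 and 61.7 CPM in basal libraries, against 536, 410 and 296 CPM in apical libraries. Trnp1, a gene of nuclear organisation studied in neural progenitors, had 42.6, 25.4 and 11.5 CPM in those basal libraries and 101, 90.2 and 53.8 CPM in the apical ones. In all 3 loci basal library 3 was the lowest of the 6, and none passed the test (edgeR adjusted p = 1 for each).

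Novel01488, a short spliced locus of 443 bases 265194 bases away from its nearest annotated gene, had 463, 144 and 13.1 CPM in basal libraries, against 487, 570 and 193 CPM in apical libraries. Its mean FPKM of 703 was above that of Novel02942, and for Novel01488 this value was the count divided by length and total. Novel00646, 606 bases before the 5′ end of Msi1 on the opposite strand of chromosome 12 and itself noted as a Musashi RNA-binding protein, had 75.4, 57.3 and 46.5 CPM in basal libraries, against 87.8, 260 and 325 CPM in apical libraries. It was the only one of the 10 whose groups did not overlap, with a log2 fold change of -1.82 (SE 0.56, edgeR adjusted p = 0.438). Msi1, a regulator of translation in progenitor cells, had 0.0542, 53.5 and 11.8 CPM in basal libraries, against 18.7, 41.4 and 42.4 CPM in apical libraries, with overlap. Novel01798 and Novel03016 averaged 195 and 141 CPM.

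The 5 most even loci were taken by rule. Among loci averaging at least 10 CPM, Novel02441 had the smallest coefficient of variation, 18.3%, with 481, 419 and 271 CPM in basal libraries and 423, 405 and 353 CPM in apical libraries. Its note is calmodulin, a calcium sensor of all cells. Novel02512, noted as the 6.8 kDa mitochondrial proteolipid, followed with 425, 526 and 540 counts in basal libraries and 455, 460 and 415 counts in apical ones, a coefficient of 20.7% on the CPM scale. Novel02282, noted as polyubiquitin-B, had 101, 143 and 194 CPM in basal libraries and 125, 177 and 215 CPM in apical libraries. Calmodulin and ubiquitin notes name families with near-identical copies elsewhere in the genome, so how the authors' counting shared reads among copies leaves these levels uncertain. Novel02667, noted as chromatin accessibility complex 1 and lying beside Chrac1, and Novel02618, noted as a hypothetical protein, completed the 5 with coefficients of 29.9% and 31.8%.

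**Figure D3:**
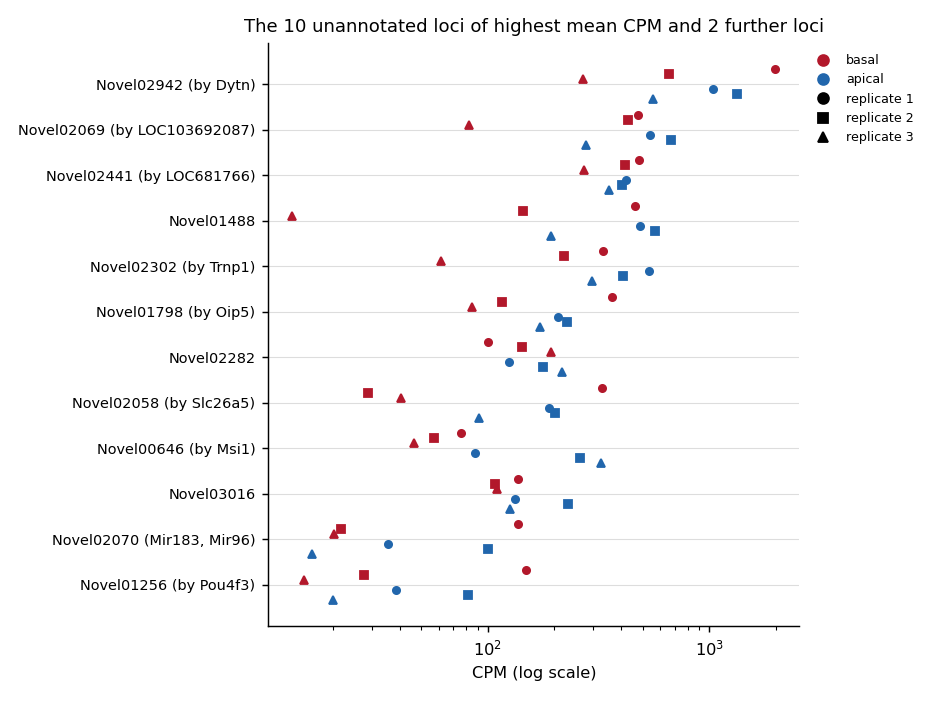
CPM (log axis) in each library for the 10 unannotated loci of highest mean CPM, the locus spanning Mir183 and Mir96 and the locus by Pou4f3; red marks are basal, blue apical, and the symbol is the replicate. Basal library 3 is the lowest of the 6 at Novel02942 (270 CPM), Novel02069 (82.0 CPM) and Novel01488 (13.1 CPM), while Novel02441 stays between 271 and 481 CPM.

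In the genome the loci sat mostly outside annotated genes. Only 13 loci (0.428%) overlapped an annotated gene's span, 6 of them on the same strand, whereas 21.3% of annotated genes overlapped another annotated gene. Features listed apart from annotated genes may lack overlap by the way they were found, which the sources used here do not give. Among 3030 loci on a sequence with an annotated gene, the gap to the nearest one had a median of 10263 bases. Without overlapping features the medians were 10400 bases for loci and 10113 bases for annotated genes and their nearest annotated neighbour. A gap of at most 5 kb was found for 1113 loci (36.7%), of at most 1 kb for 606, and of more than 100 kb for 254.

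Near genes, the most frequent place was just before a gene's 5′ end on the other strand. A divergent promoter transcript would lie there, but whether these loci are such transcripts was not tested. Of 1100 non-overlapping loci within 5 kb, 478 (43.5%) lay there, against 24.5% of 8820 annotated genes placed the same way, with median gaps of 323 and 679 bases. Past the 3′ end on the opposite strand were 265 loci (24.1%, against 31.6% of annotated genes), before the 5′ end on the same strand 181 (16.5%, against 23.2%), and past the 3′ end on the same strand 176 (16.0%, against 20.7%). Opposite-strand placement rests on the table's strand column, while the library kit does not record strand. Novel00646 and Novel02667 were placed opposite Msi1 and Chrac1, yet their notes name the proteins of those genes. Loci close to genes were higher and more widely seen: within 5 kb the median of mean FPKM was 1.85 and 17.4% had counts in all 6 libraries, against 0.930 and 7.74% from 5 to 50 kb and 0.827 and 6.77% beyond 50 kb.

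**Figure D4:**
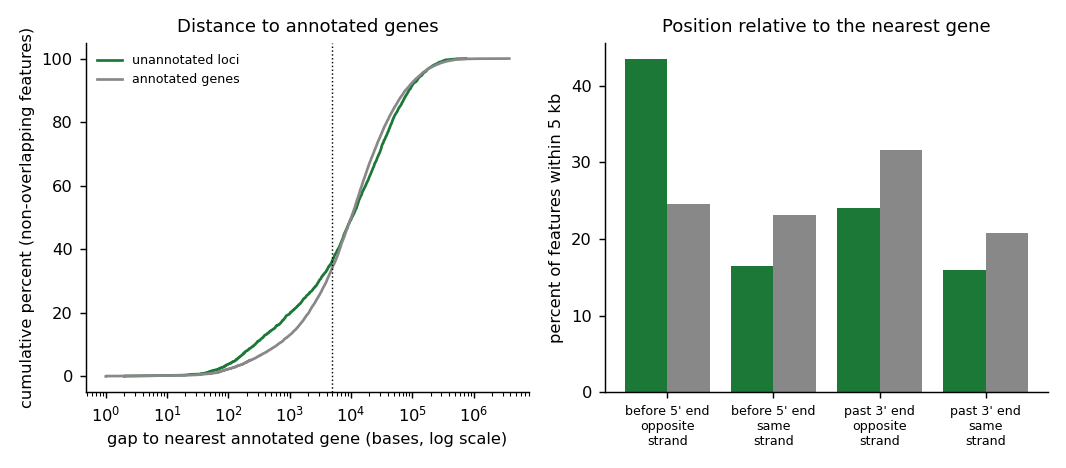
Left, cumulative percent of non-overlapping features by gap to the nearest annotated gene (bases, log axis; dotted line at 5 kb); right, percent of those within 5 kb in each position relative to that gene. Before the 5′ end on the opposite strand stand 43.5% of unannotated loci (green) and 24.5% of annotated genes (grey).

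For pairs within 5 kb, the basal against apical direction of a locus was set beside that of its neighbour. Where both were tested, 252 of 451 pairs (55.9%) had fold changes of the same sign, against 1756 of 3473 neighbouring pairs of annotated genes (50.6%). By position the share was 63.6% (42 of 66) past the 3′ end on the same strand, 61.8% (84 of 136) past the 3′ end on the opposite strand, 58.8% (30 of 51) before the 5′ end on the same strand and 48.5% (96 of 198) before it on the opposite strand. The library with the highest CPM was the same for locus and neighbour in 24.2% of 851 pairs with at least 20 counts each, against 19.2% of annotated pairs, and in 32.2% of 121 pairs past the 3′ end on the same strand. Pairs share libraries and are not independent, so these are descriptions.

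Beside hair cell genes, 3 loci were taken by rule as the highest within 5 kb of a listed marker. Novel02058, on the minus strand of chromosome 4 from 9861056 to 9865698, lies 484 bases past the 3′ end of Slc26a5, the gene of the motor protein prestin, on the opposite strand. It had 328, 28.8 and 40.7 CPM in basal libraries, against 188, 201 and 90.8 CPM in apical libraries, while Slc26a5 had 46.9, 168 and 40.4 CPM in basal libraries, against 438, 211 and 110 CPM in apical libraries. Locus and gene thus differed in basal library 1, where the locus was at its highest and Slc26a5 near its lowest. Their log2 fold changes were -0.11 (SE 0.95) and -1.55 (SE 0.71), neither past the threshold (edgeR adjusted p = 1 and 0.900).

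Novel01256, without a note, lies 1127 bases past the 3′ end of Pou4f3 on the same strand of chromosome 18, from 36717589 to 36780812; Pou4f3 is a transcription factor that hair cells need to survive. It had 2754, 455 and 299 counts in basal libraries, against 880, 1520 and 463 counts in apical libraries. Pou4f3 had 980, 175 and 57.1 CPM in those basal libraries, in the same order as the locus, and 338, 184 and 189 CPM in the apical libraries, in another order. Novel01664, 1189 bases past Lhfpl5, which encodes a subunit of the mechanotransduction channel complex, was almost confined to 1 library, with 0, 0 and 1 counts in basal and 23, 465 and 12 counts in apical libraries. Its note is the mouse entry shared by 59 loci.

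Of the other marker lists, the supporting cell list gave 1 locus, the bone and fibrocyte list 2 and the neuron list 1, and no locus had a Schwann cell, macrophage or red blood cell marker as its nearest gene within 5 kb. Novel01480 lies 191 bases past the 3′ end of Sox2, a supporting cell transcription factor, on the same strand, and had 25.9, 23.9 and 47.1 CPM in basal libraries, against 2.45, 2.95 and 19.3 CPM in apical libraries. All 3 basal values were above the apical ones, with a log2 fold change of 2.05 (SE 1.17, edgeR adjusted p = 1), whereas Sox2 had 30.5, 36.5 and 28.1 CPM in basal libraries and 19.4, 5.91 and 106 CPM in apical libraries. Novel00396, 2309 bases past Col1a1, which encodes the main collagen of bone, had 0, 7.57 and 13.1 CPM in basal libraries, against 0.875, 1.07 and 0.821 CPM in apical libraries, and Col1a1 was likewise highest in basal libraries 2 and 3, at 159 and 284 CPM. Those basal libraries also had the largest bone and fibrocyte marker sums. Novel03029, by Pou3f4, a gene of cochlear fibrocytes, was at 8.24 and 8.13 CPM in basal libraries 2 and 3, at 2.54 CPM in apical library 1 and at 0 in the others.

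In the comparison of turns, no locus passed the test. Of the 3036 loci, 1149 (37.8%) had enough counts to be tested and 1887 had not, and edgeR's quasi-likelihood test, fitted on all 13507 features that passed, called 0 of them at an adjusted p under 0.05, as it did 0% of all features. The smallest adjusted p among loci was 0.438. By sign alone, 595 loci were higher and 554 lower in basal libraries, and the median log2 fold change was 0.07, against -0.02 over all features; scaled by library totals alone the loci's median was -0.0022. These values hold for the 1149 loci with enough counts: over all 3004 loci with a count the median was -0.64 with no count filter and -0.59 with DESeq2, against -0.08 and -0.02 over all features. The lower and upper quartiles of the loci's log2 fold changes were -1.31 and 1.20.

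At an unadjusted p under 0.05, 89 loci (7.75% of those tested) stood out, against 6.0% of all features. They were 11 with higher and 78 with lower values in basal libraries, where the shares of all features were 2.12% higher and 3.88% lower. A locus at 0 in 1 group was tested only if all 3 libraries of the other group had enough counts. Counts in all 3 apical libraries and no basal one were found for 119 loci, and the reverse for 7. Splits by direction among tested loci thus depend in part on which loci entered the test. Basal and apical libraries did not overlap for 196 loci (17.1%), against 16.0% of all features. Basal libraries were higher for 48 of these, with 4.74% over all features, and lower for 148, with 11.3% over all features. Leaving out 1 library lets more loci be tested and gave 105 to 207 loci at an unadjusted p under 0.05. There were 188 without basal library 1 (12% of loci, against 9.84% of all features) and 203 without basal library 3 (13.6%, against 11.8%). There were 207 without apical library 2 (13.3%, against 6.44%) and 135 without apical library 3 (9.37%, against 5.02%). With basal library 1 as the sole basal library, whose variation is then assumed to be that of the others, 278 loci (11.1%) had an unadjusted p under 0.05, against 18.9% of all features. Of the loci 174 were higher and 104 lower in basal, and of the features 834 were higher and 2397 lower. The share of loci was also below that of all features by limma with no filter (5.36%, against 6.76%).

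Other tools gave other counts. DESeq2 called 118 of 3004 loci (3.93%) at an adjusted p under 0.05, against 3.31% of 20038 features, with 29 higher and 89 lower in basal libraries, where 270 features were higher and 393 lower. In 81 of the 118, the basal or the apical group was at 0 counts throughout. That split depended on the libraries: DESeq2 without 1 apical library called 194 to 232 loci (6.92% to 8.50%, against 3.63% to 4.57% of all features), of which 142 to 192 were higher in basal. Without 1 basal library it called 182 to 291 (6.14% to 10.6%, against 3.99% to 8.96% of all features), of which 36 to 59 were higher. The calls over all features turned likewise, with 64.9% to 78.6% of them higher in basal without 1 apical library and 16.3% to 36.3% without 1 basal library. The bias-adjusted form of edgeR's test called 1 locus (0.0870%), against 0.207% of all features, and limma called none on log2(FPKM + 1). In the table that the authors deposited, 16 loci (0.533% of 3004) had an adjusted p under 0.05, against 0.534% of 20038 features, 4 of them higher and 12 lower in basal cells.

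Loci with counts in 1 group alone numbered 420 in basal and 1028 in apical libraries, or 14% and 34.2% of those with a count. For annotated genes these shares were 6.58% and 11.6%. A feature with counts in 1 library alone falls in 1 group by necessity, as did 355 of the 420 and 655 of the 1028 loci. Counts in all 3 libraries of a group and none in the other were found for 7 loci in basal and 119 in apical libraries, or 0.233% and 3.96%, against 0.123% and 1.20% of annotated genes with a count. Since fewer loci had counts in basal libraries at all, this difference comes from the same counts as the detection per library given above.

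Among the loci with the smallest p, several of those lower in basal libraries had no basal count at all. Novel00998, on chromosome 15 from 54316354 to 54339491, noted as a crumbs homolog 2-like protein of the family that sets apical cell polarity, had 0 counts in all 3 basal libraries, against 309, 961 and 678 in apical libraries. Set against a floor of 3 counts over the basal group, the apical rate was at least 556-fold higher. Here and below, such floors and counting intervals pool the 3 libraries of a group and cover counting error only. They leave out the spread among libraries, from 13.5 to 51.6 CPM in apical ones here, and so do not bound the difference between turns. Novel00237, 6946 bases before Sv2b, a synaptic vesicle gene, likewise had 0 counts in basal libraries, against 203, 884 and 803 in apical libraries, a rate at least 539-fold higher in apical. Sv2b, in contrast, averaged 5.42 ± 9.38 CPM in basal and 4.41 ± 4.59 CPM in apical libraries (SD, n = 3 each).

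Novel01185, Novel02321, Novel02298 and Novel00393 were also at 0 in every basal library and had 1129, 1078, 996 and 891 counts summed over apical libraries. Novel00790 had 2, 0 and 0 counts in basal libraries, against 949, 196 and 819 in apical libraries, and Novel00883, 108 bases before Sgcb on the opposite strand, had 2, 0 and 0 against 585, 708 and 177. The summed apical rates were 840 times (counting interval 232 to 6942) and 629 times (174 to 5197) the basal ones. Sgcb, which encodes a sarcoglycan, was also lower in every basal library, at 33.5, 42.8 and 42.1 CPM, against 81.4, 194 and 49.1 CPM in apical libraries, but by far less. Novel01852 had 0, 5 and 7 counts in basal libraries, against 434, 831 and 500 in apical libraries. None of these 9 loci passed edgeR's test (adjusted p = 0.438 for each), whereas DESeq2's adjusted p was 5.27e-07 or less for all 9. All 9 were chosen from these same counts for small p and groups that do not overlap. Small p-values from DESeq2 are thus no separate support.

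Novel00954 lies 289 bases before Nefm, the neurofilament medium chain gene of neurons, on the opposite strand. It had 0 counts in all basal libraries, against 252, 404 and 169 in apical libraries, a rate at least 235-fold higher in apical (edgeR adjusted p = 0.438). Nefm itself had 30, 466 and 1941 counts in basal libraries and 924, 246 and 1980 in apical ones, so the groups overlapped for the gene and not for the locus.

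A run of loci on chromosome 13, chosen after its values were seen, carried the same note. Novel00730, Novel00731, Novel00732 and Novel00734, all on the plus strand between 99864292 and 100037455, were each noted as dynein heavy chain 14, an axonemal motor of cilia. The gaps between them were 27791, 317 and 63510 bases. Together they had 0 counts in basal libraries, against 120, 301 and 11 counts in apical libraries 1 to 3. Only Novel00730 had a count in every apical library, with 45, 301 and 1, and none had enough counts to be tested by edgeR. Whether they belong to 1 gene was not tested.

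Among the 10 loci higher in basal libraries, chosen from these same counts for small p and separate groups, Novel02203 had the smallest p. It lies 181 bases past the 3′ end of Clic4, a chloride intracellular channel gene, on the opposite strand of chromosome 5 (153565827 to 153568563). Novel02203 had 96.6, 81.8 and 47.7 CPM in basal libraries, against 15.3, 6.18 and 11.8 CPM in apical libraries. Every basal value was above every apical one, and the fold change on the log2 scale was 2.85 (SE 0.70; edgeR adjusted p = 0.438; DESeq2 adjusted p = 0.000158). Clic4 was low in all libraries, with 0, 5.45 and 6.85 CPM in basal and 3.90, 1.13 and 0.389 CPM in apical libraries.

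Novel00765 lies 232 bases before Ptgs2, the inducible cyclooxygenase gene, on the opposite strand. It had 366, 556 and 1552 counts in basal libraries, against 54, 28 and 0 counts in apical libraries, with a log2 fold change of 5.09 (SE 1.79, edgeR adjusted p = 0.557). Ptgs2 had 0, 0 and 6.01 CPM in basal libraries and 0.438, 0 and 0 CPM in apical libraries. Novel00227, 2282 bases past the 3′ end of Klf13 on the same strand, had 259, 1202 and 689 counts in basal libraries, against 106, 7 and 78 counts in apical libraries. Klf13, a Krüppel-like transcription factor, was higher in every basal library too, at 18.7, 31.3 and 37.3 CPM, against 7.88, 5.80 and 7.65 CPM in apical libraries. The log2 fold changes were 3.86 (SE 1.31) for the locus and 2.08 (SE 0.99) for Klf13, with edgeR adjusted p of 0.504 and 0.926.

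Several basal loci were carried by 1 library. Novel00714 had 74.2, 11.6 and 1.77 CPM in basal libraries, against 0.131, 0 and 0 CPM in apical ones, and Novel01465 had 36.4, 6.06 and 0.690 CPM in basal libraries and none in apical ones; basal library 1 was highest in both. Novel00616 had 5.90, 106 and 5.76 CPM in basal libraries, against 2.10, 0.322 and 0.0864 CPM in apical libraries. Novel01614 had 0.542, 15.5 and 2.41 CPM in basal libraries and none in apical ones. In both of these loci basal library 2 was highest. Novel00992, the longest transcript of all at 10091 bases, was more even, with 27.7, 27.2 and 46.8 CPM in basal libraries, against 0, 1.13 and 0 CPM in apical libraries. Novel00238 had 85.3, 38.0 and 13.9 CPM in basal libraries, against 3.94, 7.68 and 2.25 CPM in apical ones, and Novel02551 had 36, 33 and 11 counts in basal libraries, against 1, 0 and 0 counts in apical ones.

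Of the 16 loci called in the authors' deposited table, every one also had a DESeq2 adjusted p under 0.05, and 12 are described above. Another 3 were chosen here for those calls, after their values were seen. The first is Novel01372, 132 bases before Cotl1 on the opposite strand, with 13, 0 and 10 counts in basal libraries, against 1027, 826 and 574 in apical libraries. Novel02270 and Novel01006 were called as higher in basal cells in the authors' deposited table although basal library 1 had 0 counts for both. Novel01006, noted as diaphanous homolog 3 and 29207 bases past Diaph3 on the same strand, had 0, 427 and 321 counts in basal libraries and none in apical ones, and Novel02270 had 0, 282 and 630 counts in basal libraries and none in apical ones. Both were at 0 in basal library 1 and present in basal libraries 2 and 3. Of the basal libraries, library 1 had the smallest Schwann cell, bone and fibrocyte, red blood cell, supporting cell and neuron sums. Its macrophage sum, 0.134%, lay between those of basal library 2 (0.0242%) and basal library 3 (0.203%). Basal library 1 also had the largest outer hair cell sum, and whether any of these is linked was not tested.

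**Figure D5:**
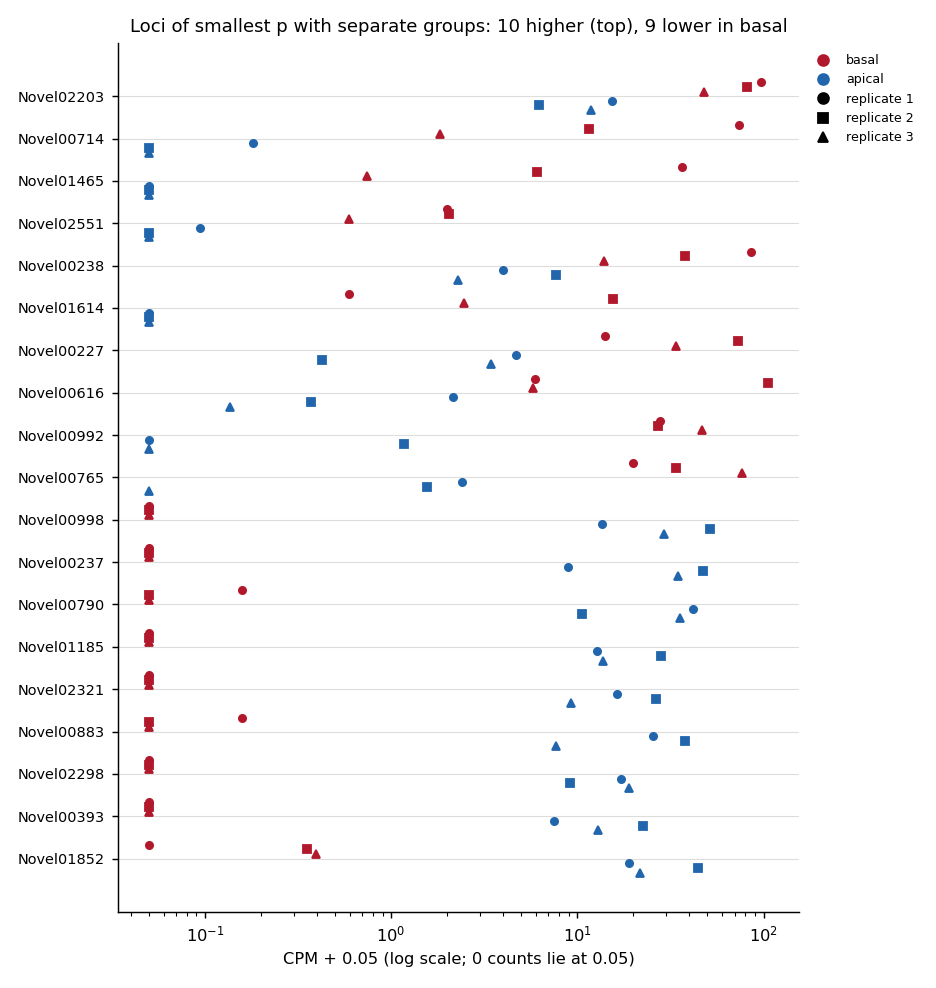
CPM + 0.05 (log axis) in each library for the 10 loci higher (upper rows) and 9 lower (lower rows) in basal libraries, chosen by small p among those whose groups do not overlap; red marks are basal, blue apical. In 6 of the 9 lower loci all 3 basal libraries lie at 0 counts, while the higher loci have basal values spread widely, as at Novel00714 (1.77 to 74.2 CPM).

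Of the 39 zinc finger loci, 29 were tested and 15 of these were higher in basal libraries by sign. At an unadjusted p under 0.05, 1 of the 29 was lower and 0 were higher, where 3.88% of all features were lower and 2.12% higher. By distance, 4 loci (0.694%) within 5 kb of a gene were higher and 28 (4.86%) lower at that threshold among 576 tested. From 5 to 50 kb 2 (0.485%) were higher and 35 (8.50%) lower among 412, and beyond 50 kb 5 (3.47%) were higher and 14 (9.72%) lower among 144. The same 2.12% and 3.88% of all features stand beside these. The limit on such splits given above, from loci at 0 in 1 group, holds here too.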

How the data were processed

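Per the file headers, the deposited table gives for each feature whole-number read counts per library, FPKM values made by the authors, and the authors' mean normalized counts per group (a normalized signal), log2 fold changes and p-values; these last were used only where named as the authors'. Bowtie2 2.2.3 and TopHat2 2.0.12 were run, per the submitters' processing notes; the build, the assembly of the loci, the counting and the differential test are not stated in what was used here. For 53.9% to 58.9% of loci with over 20 counts, the authors' FPKM was the count divided by length and total (relative tolerance 1e-06); what lies behind the others was not tested.

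Counts were analysed as deposited. All features went into 1 fit (edgeR 4.0.16, R 4.3.3; filterByExpr by group, TMM, glmQLFit and glmQLFTest, no covariate), with Benjamini-Hochberg adjustment over the 13507 kept and a threshold of 0.05; the script was tested on simulated data. DESeq2 1.42.0 and limma 3.58.1 (with log2(FPKM + 1)) were alternatives. Standard errors are the log2 fold change over the square root of F. Gaps run from a locus's span to the nearest annotated span in the table. Single values were compared by exact permutation over libraries. Floors and counting intervals (95%) cover counting error only.

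Loci named were the 10 of highest mean CPM; in each direction the 10 of smallest p with groups that do not overlap and at least 20 mean counts in the higher group; the highest within 5 kb of listed marker genes; the 5 most even; and the highest in 1 library alone. One locus that this rule names is not reported here. The members and lists were chosen with earlier results of these data known. The miRNA locus, the dynein loci and 3 loci called by the authors were added after values were seen. Both groups number replicates 1 to 3, but the labels do not say that a number pairs libraries.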

Additional observations from a re-analysis of the deposited data

How the results depend on the processing

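edgeR called 0 loci by adjusted p in the main form and under every other filter, scaling and single left-out library, and so did limma; the exceptions were DESeq2 (118) and the bias-adjusted form (1), and, added after seeing the data, edgeR without both basal libraries 2 and 3 (7, or 0.281% of loci, against 1.69% of all features). DESeq2 fits that left out 1 library were also added then. Without basal 1, 2 or 3 they called 263, 182 and 291 (8.95%, 6.14% and 10.6% of loci, against 6.23%, 3.99% and 8.96% of all features). Without apical 1, 2 or 3 they called 232, 201 and 194 (8.50%, 6.92% and 7.12%, against 4.57%, 3.87% and 3.63%).

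At an unadjusted p under 0.05 the 89 loci (7.75%, against 6.0% of all features) became 310 with DESeq2 (10.3%, against 9.60%), 161 with the bias-adjusted form (14%, against 11.5%) and 143 with limma on log2(FPKM + 1) (14%, against 10.7%). They became 161 with limma and no filter (5.36%, against 6.76%), 166 with no count filter (5.53%, against 5.52%) and 278 without both basal libraries 2 and 3 (11.1%, against 18.9%). With 1 library left out there were 105 to 207 (7.56% to 13.6%, against 4.94% to 11.8%). DESeq2 without basal 1, 2 or 3 gave 529, 447 and 563 (18%, 15.1% and 20.4%, against 13.9%, 10.9% and 16.9%), and without apical 1, 2 or 3 gave 431, 414 and 400 (15.8%, 14.3% and 14.7%, against 9.67%, 8.96% and 8.87%). With the replicate block there were 27 (2.35%, against 4.20%), and 0 called; same-numbered libraries correlated at -0.04, 0.01 and 0.14, so the numbers were not taken as pairs.

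The difference in share of counts ranged from -0.461 to 0.403 points without 1 library, below 0 without basal library 1 or apical library 3 (-0.0981). With a window of 1 kb 606 loci were near a gene, and 444 with same-strand genes only. For the 20 loci chosen by p, 0 of 499 alternative values of the fold change reversed in sign, and 124 passed a threshold that the main value missed. The cause was not tested. These loci were chosen from the same counts for small p and groups that do not overlap. A reversal was thus unlikely from the start, and its absence is no check of their direction.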
